A study of Rattus norvegicus with 6 samples.

Results

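The genes followed here encode the enzymes that process foreign compounds and reactive metabolites, together with the aryl hydrocarbon receptor (AhR) axis, in cultured rat fibroblast-like synoviocytes (RA-FLS). They were chosen by gene symbol among protein-coding genes. The enzymes were the cytochrome P450 families 1 to 4 (Cyp), UDP-glucuronosyltransferases (Ugt), glutathione S-transferases of the cytosol and mitochondria (Gst) and of membranes (Mgst), sulfotransferases (Sult), aldehyde dehydrogenases (Aldh) and aldo-keto reductases (Akr). The AhR axis was Ahr, Ahrr, Arnt and Tiparp. The rule found 135 genes of the 34156 in the count table. The study asked how emodin (EMO), an anthraquinone of rhubarb, changes the transcriptome of RA-FLS under tumor necrosis factor alpha (TNF-α). In the TNF-α group, cells of genotype WT were given 10 ng/mL TNF-α. In the TNF-α+EMO group, cells of the same genotype were given the same TNF-α with 80 μmol/L EMO. Each group had 3 poly(A)-selected, paired-end RNA-seq libraries. All cells thus received TNF-α, and no library of untreated cells or of EMO alone was analysed here. The labels give the time as day 5, while the study's methods give a shorter exposure. The cells were bought as RA-FLS and carry a rheumatoid arthritis label. The methods call the 3 libraries of a group biological replicates, but nothing says that they came from separate animals, so p-values here measure the spread between these libraries.

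Phase I enzymes such as cytochrome P450s, aldehyde dehydrogenases and aldo-keto reductases oxidize, reduce or hydrolyze a compound. Phase II enzymes then attach glutathione, glucuronic acid or sulfate, and transporters carry the product out. AhR is a cytosolic receptor held by Hsp90 and co-chaperones. On binding a planar ligand it enters the nucleus, pairs with Arnt, and binds xenobiotic response elements near genes such as Cyp1a1, Cyp1b1, Ugt1a6, Aldh3a1, Ahrr and Tiparp. Ahrr and Tiparp in turn repress AhR. These enzymes are best known from liver, and fibroblasts of many tissues express Cyp1b1.

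The libraries held 16813322 to 17794455 counts. Of 14 markers listed for FLS, 13 were found in the table and 10 could be tested. Their summed normalized counts (counts scaled by the TMM library size) were 200840 to 220910 with TNF-α alone and 36014 to 38588 with EMO. Of those 10 markers, 7 fell with EMO (Col1a1, Col3a1, Pdgfra, Pdgfrb, Cdh11, Lum and Fap) and 2 rose (Cd55 and Dcn). Lum and Fap reached 10 counts only with TNF-α alone, and Dcn only with EMO, so the filter set their directions. Among the other 7 tested markers 5 fell, or 71.4%, and 1 rose, or 14.3%. Among all tested genes not admitted by a single group, 23.5% fell and 18.9% rose. Thy1, Prg4 and Pdpn, which are defining FLS markers, were at 7 counts or fewer in every library of both groups. Of 10 hepatocyte markers, Tdo2 and Fgb had no count in any library and Serpina1 was the only marker tested. The summed hepatocyte markers were 12.7 to 14.7 normalized counts with TNF-α alone and 247 to 269 with EMO, with Serpina1 giving nearly all of the latter. Macrophage markers summed to 1200 to 1302 and 747 to 818, with Tyrobp at 0 in all libraries. Cd14, which made up most of that sum, fell by 1.10 on the log2 scale, while Cd68 had a log2 fold change of 0.75 and Itgam had 1, 0 and 0 raw counts against 12, 10 and 14. Epithelial markers summed to 9950 to 10806 and 1985 to 2333, nearly all of it Krt8, with Epcam and Krt5 at 0 in all libraries. Cldn4, the other epithelial marker tested, had 0 raw counts with TNF-α alone and 16, 17 and 28 with EMO. Endothelial markers summed to 69.2 to 76.5 and 13.2 to 21.7, with Emcn and Kdr at 0. The part of these markers in the results was not tested. In bulk libraries, fewer cells of a type and less RNA per cell cannot be told apart.

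Of the 135 genes, 41 had no count in any library, 41 had counts but too few to test, and 53 were tested (at least 10 counts in at least 3 libraries). A gene was called differentially expressed (a DEG) when edgeR (quasi-likelihood test, Benjamini-Hochberg adjustment) gave an adjusted p below 0.05 and the groups differed by more than 1 on the log2 scale. Of the 53 tested genes 29 were DEGs, or 54.7%, against 47.3% of all 13614 tested genes. EMO raised 8 of them, or 15.1%, against 19.5% of all tested genes, and lowered 21, or 39.6%, against 27.8%. The libraries of the groups did not overlap for 40 of the 53 genes, or 75.5%, against 82.9% of all tested genes. Over the 53 genes the median log2 fold change was -0.64, and over all tested genes it was -0.01. A further 12 genes passed the adjusted p alone, 6 of them higher and 6 lower with EMO. Reaching 10 counts only in the TNF-α libraries admitted 6 of the tested genes, and reaching it only with EMO admitted Cyp4b1. Such genes had to differ. Among the other 46 tested genes 7 rose, or 15.2%, and 15 fell, or 32.6%. Among all tested genes not admitted by a single group, 18.9% rose and 23.5% fell.

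**Figure D1:**
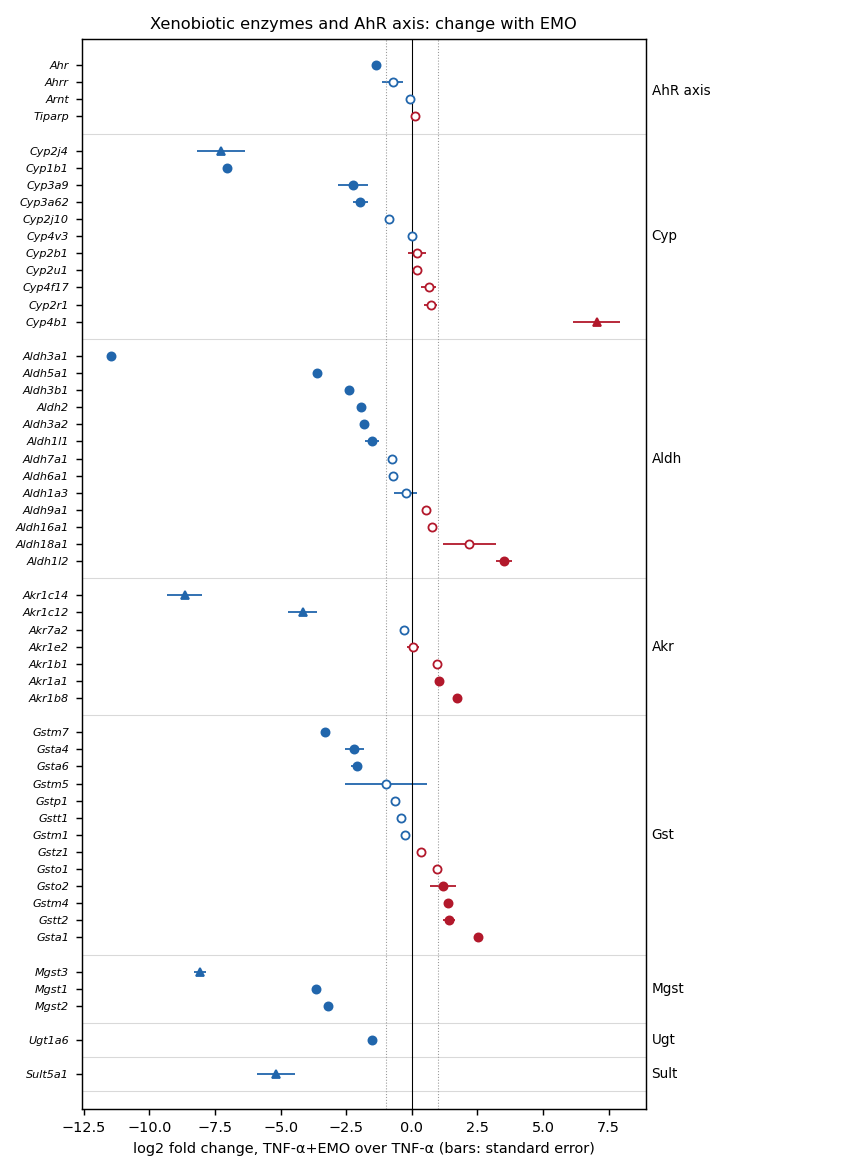
Log2 fold change of TNF-α+EMO over TNF-α (horizontal axis, bars are the standard error) for the 53 tested genes, grouped by family and ordered within it. Filled symbols are DEGs, open symbols are not, red is higher and blue lower with EMO, triangles mark genes with a group at 3 counts or fewer in every library, and dotted lines mark a log2 fold change of 1 in either direction. Values run from -11.45 for Aldh3a1 to 7.05 for Cyp4b1, and the 3 Mgst genes lie between -8.07 and -3.19.

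Of the 4 genes of the AhR axis, Ahr was the only DEG, or 25%, against 47.3% of all tested genes. Ahr, the ligand-binding receptor, had 1745, 1801 and 1572 normalized counts with TNF-α alone and 642, 702 and 642 with EMO. Every TNF-α library lay above every TNF-α+EMO library, and the log2 fold change was -1.37 ± 0.08 (SE, n = 3 per group), with an adjusted p of 2.87e-08 by edgeR. Arnt, the partner that AhR needs to bind DNA, had 898, 910, 875 and 901, 855, 827 normalized counts in the same order. The groups overlapped, with a log2 fold change of -0.05 ± 0.07 and an edgeR adjusted p of 0.50. Tiparp, an ADP-ribosyltransferase that dampens AhR, had 466, 567 and 514 against 616, 569 and 492. Its groups overlapped too, at a log2 fold change of 0.12 ± 0.11 and an edgeR adjusted p of 0.34. Ahrr, the repressor that competes for Arnt, was scarce, with 18.6, 28.3 and 17.5 normalized counts against 7.22, 18.4 and 13.2. Its groups overlapped, and its log2 fold change of -0.72 ± 0.40 had an edgeR adjusted p of 0.12. Per kilobase of deposited gene length, the mean level of Ahr was 332 normalized counts in the TNF-α group and 129 in the TNF-α+EMO group, and that of Arnt 366 and 353. Ahr and Arnt thus lay at nearly the same length-scaled level with TNF-α alone, and Ahr lay well below Arnt with EMO.

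The genes known as AhR targets were at very different levels. Cyp1b1, which hydroxylates estrogens and polycyclic hydrocarbons, had 7257, 7280 and 7091 normalized counts with TNF-α alone and 45.4, 73.7 and 45.8 with EMO. The means were 7209 ± 103 and 55.0 ± 16.2 (SD, n = 3), a 131-fold gap between groups that did not overlap. The log2 fold change was -7.03 ± 0.13 (SE), with an edgeR adjusted p of 1.03e-11. Cyp1a1 and Cyp1a2, the other Cyp1 genes and the classical readouts of AhR activation, had no count in any of the 6 libraries, which allows up to 3 counts per library at this depth. Ugt1a6, which glucuronidates small planar phenols, had 890, 883 and 878 against 315, 328 and 287 normalized counts. The groups lay far apart, at a log2 fold change of -1.51 ± 0.08 and an edgeR adjusted p of 1.97e-08. It was the only Ugt1 gene in the table and its interval on chromosome 9, from 95161157 to 95302822 (build Rnor_6.0), is long for a single transcript. Ugt1a first exons are known to share their last exons, so reads of other Ugt1a forms may be counted in it.

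Aldh3a1, an aldehyde dehydrogenase of cornea and of AhR-induced tissue, was the most abundant of the tested aldehyde dehydrogenases with TNF-α alone. Its raw counts were 22198, 21234 and 21979 with TNF-α alone and 4, 5 and 13 with EMO. Nqo1, a quinone reductase that both AhR and NRF2 can induce and that is no member of these families, had 921, 865 and 1024 normalized counts in the TNF-α libraries. It had 1367, 1687 and 1774 with EMO, the opposite direction to Cyp1b1. Its log2 fold change of 0.78 ± 0.10 stayed under the DEG threshold with an edgeR adjusted p of 3.67e-05.

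**Figure D2:**
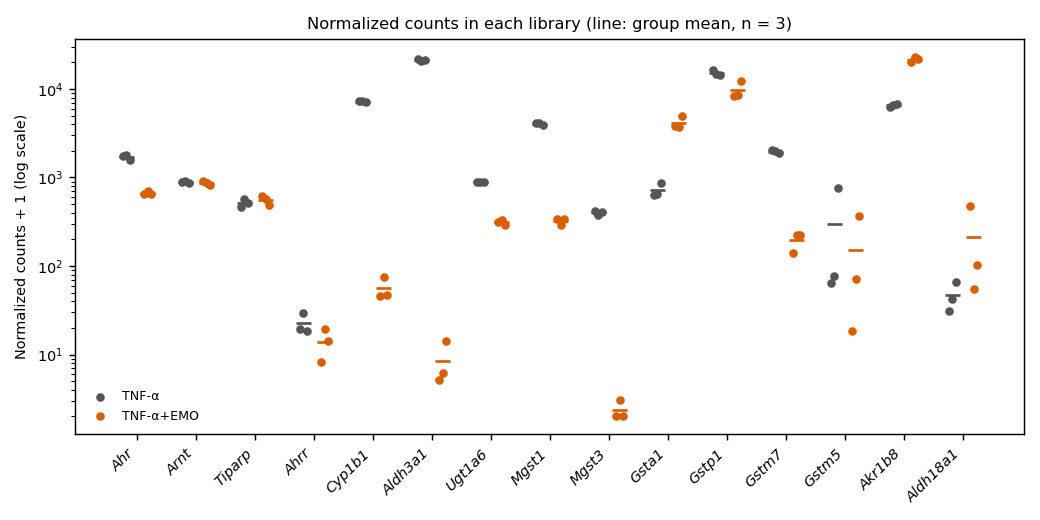
Normalized counts plus 1 (vertical axis, log scale) of 15 genes in each library, with TNF-α libraries in grey and TNF-α+EMO libraries in orange, and a line at each group mean. Cyp1b1, Aldh3a1 and Mgst3 drop by over 100-fold between the groups, Arnt and Tiparp overlap, and Gstm5 and Aldh18a1 spread widely within a group.

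Some promoters are printed to show where the letters bound by AhR lie in genes that behaved differently. Each printed promoter holds these letters, so their sharing was set by the choice. The promoters of Ahr, Mgst1 and Gstm7, which also fell, hold none in the 250 bases before the start. The core of the xenobiotic response element is GCGTG, read on both strands (CACGC on the other). The longer form TNGCGTG contains the core, and the antioxidant response element, bound by NRF2 and its partners, is TGACNNNGC. RefSeq sequences of the 250 bases before the start were taken from build GRCr8, which differs from the build of the deposited positions, and are written 5′ to 3′ along the gene with the core and the antioxidant element in capitals. Cyp1b1 (fell, chr6:21094315-21094564, plus strand) has 2 cores at positions -81 and -20, counted from the start. Ugt1a6 (fell, chr9:96194768-96195017, plus strand) has 1 at -133. Tiparp (groups overlapped, chr2:152063519-152063768, plus strand) has 1 at -136. Ahrr (groups overlapped, chr1:30821969-30822218, plus strand) has 3 at -142, -117 and -57. Mgst3 (fell, chr13:82080296-82080545, minus strand) has 2 at -84 and -77.
Cyp1b1: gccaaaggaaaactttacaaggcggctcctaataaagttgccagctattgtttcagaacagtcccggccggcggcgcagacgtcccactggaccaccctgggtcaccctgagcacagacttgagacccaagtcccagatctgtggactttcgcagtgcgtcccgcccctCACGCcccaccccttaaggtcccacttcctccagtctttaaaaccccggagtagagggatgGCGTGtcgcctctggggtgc
Ugt1a6: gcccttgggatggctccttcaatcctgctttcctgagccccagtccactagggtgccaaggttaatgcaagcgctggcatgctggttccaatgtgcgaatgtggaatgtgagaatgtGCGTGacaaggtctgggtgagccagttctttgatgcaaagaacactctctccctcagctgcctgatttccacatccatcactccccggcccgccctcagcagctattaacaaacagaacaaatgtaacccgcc
Tiparp: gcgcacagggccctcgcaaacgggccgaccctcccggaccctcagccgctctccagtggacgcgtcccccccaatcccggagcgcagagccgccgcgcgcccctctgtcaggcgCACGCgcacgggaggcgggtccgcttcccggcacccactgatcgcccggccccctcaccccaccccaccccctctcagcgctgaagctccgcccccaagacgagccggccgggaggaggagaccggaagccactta
Ahrr: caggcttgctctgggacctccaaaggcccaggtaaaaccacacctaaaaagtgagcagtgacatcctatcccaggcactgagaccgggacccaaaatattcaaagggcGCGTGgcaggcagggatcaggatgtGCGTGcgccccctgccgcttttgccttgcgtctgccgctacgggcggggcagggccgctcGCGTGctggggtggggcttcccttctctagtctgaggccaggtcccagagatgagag
Mgst3: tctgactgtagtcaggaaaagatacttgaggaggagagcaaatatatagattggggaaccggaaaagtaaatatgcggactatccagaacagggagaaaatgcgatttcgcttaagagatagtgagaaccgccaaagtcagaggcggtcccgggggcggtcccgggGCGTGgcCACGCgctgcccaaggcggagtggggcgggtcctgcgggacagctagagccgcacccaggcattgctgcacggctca

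RefSeq promoters were matched for 114 of the 135 genes and for 43 of the 53 tested. The core occurred in 18 of those 43, or 41.9%, against 45.1% of the 9200 tested genes with a promoter. It occurred in 5 of 18 lowered genes with a promoter, or 27.8%, and in 1 of 6 raised ones, or 16.7%. The longer form occurred in 4 of 43, or 9.30%, against 6.54%, in Ahrr, Cyp1b1, Aldh3a2 and Akr7a2. The antioxidant element occurred in 7 of 43, or 16.3%, against 12.5%. A match is only a run of letters in this window and says nothing about binding.

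Of the 50 cytochrome P450s outside the Cyp1 family, 27 had a count and 10 could be tested, of which 1 rose (Cyp4b1) and 3 fell (Cyp2j4, Cyp3a62 and Cyp3a9). Cyp2j4 and Cyp3a9 reached 10 counts only with TNF-α alone, and Cyp4b1 only with EMO. Among the other 7 genes 1 fell, or 14.3%, against 23.5% of all tested genes not admitted by a single group. Cyp3a62 had 49.0, 44.9 and 51.6 normalized counts against 11.3, 14.3 and 11.2, a log2 fold change of -1.97 ± 0.28 with an edgeR adjusted p of 6.00e-05. Cyp3a9 was scarcer, with raw counts of 12, 23 and 26 against 7, 1 and 4, and a log2 fold change of -2.24 ± 0.56. The Cyp3a family is known for metabolizing many drugs. Cyp2j4, an epoxygenase of arachidonic acid, had 20, 14 and 25 raw counts against 0 in all 3 libraries with EMO, which makes it at least 6.25-fold lower against 3 counts per library. Cyp4b1, which oxidizes fatty acids and furans, had 0 in every TNF-α library and 14, 17 and 17 raw counts with EMO, at least 5.59-fold higher. The other tested Cyp genes stayed within a log2 fold change of 1. Cyp4v3, a fatty acid hydroxylase, had 942, 1061 and 998 normalized counts against 1173, 971 and 850, and the groups overlapped (log2 fold change -0.00 ± 0.11, edgeR adjusted p of 0.98). Cyp2j10 had 290, 295 and 275 against 173, 156 and 145, without overlap (log2 fold change -0.86 ± 0.12). Cyp2u1, Cyp2r1 (the vitamin D 25-hydroxylase), Cyp2b1 and Cyp4f17 had log2 fold changes from 0.18 to 0.72.

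Aldehyde dehydrogenases lost more summed normalized counts than any other family here. Of 18 genes 16 had a count and 13 were tested, of which 1 rose and 6 fell. That made 53.8% DEGs, against 47.3% of all tested genes. Aldh3a2, the fatty aldehyde dehydrogenase, had 6998, 6991 and 7045 normalized counts against 1992, 1997 and 1963. Its libraries agreed closely within each group, and its log2 fold change was -1.82 ± 0.05 with an edgeR adjusted p of 1.54e-10. Aldh2, the mitochondrial enzyme that clears acetaldehyde, had 4518, 4365 and 4313 against 1052, 1092 and 1321, and fell by 1.93 on the log2 scale. Aldh5a1, which degrades succinic semialdehyde, had 519, 448 and 419 against 40.2, 37.9 and 34.6. No library of the groups met, and it fell by 3.62 on the log2 scale with an SE of 0.14. Aldh3b1 had 1954, 1840.1 and 1832 against 319, 328 and 428, a log2 fold change of -2.39 ± 0.11. Its interval overlaps Unc93b1 on the opposite strand, which had up to 1959 counts in a library. Since the strand setting of the counting is not given in the sources used here, reads of the pair may be mixed.

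The folate-linked dehydrogenases went in opposite directions. Aldh1l1, the cytosolic 10-formyltetrahydrofolate dehydrogenase, had 69.6, 51.7 and 52.6 normalized counts against 18.6, 20.5 and 21.4, and fell by 1.52 on the log2 scale (SE 0.26, edgeR adjusted p of 2.74e-04). Aldh1l2, its mitochondrial counterpart, had 7.85, 5.85 and 12.7 against 94.9, 103 and 105. The groups were far apart, with a log2 fold change of 3.50 ± 0.30 and an edgeR adjusted p of 8.76e-07. Aldh9a1 (betaine and polyamine aldehydes) and Aldh16a1 had log2 fold changes of 0.54 and 0.76, and Aldh7a1 (lysine breakdown) and Aldh6a1 (valine breakdown) -0.77 and -0.73. The groups of these 4 genes did not overlap. Aldh18a1, which makes proline precursors, had 30.4, 41.0 and 65.3 normalized counts against 469, 54.2 and 103. TNF-α+EMO replicate 1 was over 4-fold above the other libraries of its group, and the log2 fold change of 2.19 ± 0.99 had an edgeR adjusted p of 0.10. Of the retinaldehyde dehydrogenases, Aldh1a3 had 17, 12 and 8 raw counts against 11, 7 and 12, Aldh1a1 had 4, 1 and 7 against 0, and Aldh1a2 had none.

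With all Gst classes pooled, aldo-keto reductases were the only family whose summed normalized counts lay higher in every library with EMO. Taken on their own, the classes Gsta, Gsto, Gstt and Gstz also lay higher in every library with EMO. Of 17 genes 13 had a count and 7 were tested, of which 2 rose and 2 fell. That made 57.1% DEGs, against 47.3% of all tested genes. The genes that fell, Akr1c12 and Akr1c14, passed the filter only through their counts with TNF-α alone. The share of 57.1% thus draws on genes that had to differ. Among the other tested aldo-keto reductases, Akr1a1 and Akr1b8 rose, and Akr1b1, Akr7a2 and Akr1e2 were not DEGs. Among all tested genes not admitted by a single group, 18.9% rose and 23.5% fell. Akr1b8, which reduces retinal and lipid aldehydes, had 6204, 6601 and 6766 normalized counts against 19898, 22730 and 21849. Every TNF-α+EMO library was above every TNF-α library, and the log2 fold change was 1.72 ± 0.07 with an edgeR adjusted p of 1.18e-09. Akr1a1, the aldehyde reductase, had 9486, 9260 and 9403 against 16916, 18616 and 21514. The log2 fold change was 1.02 ± 0.08, just past the threshold of 1, and was between 0.90 and 1.12 over 16 other fits, 8 of which no longer called it. It was 0.95, 0.94 and 0.95 without TNF-α replicate 1, 2 or 3, and 0.94 without TNF-α+EMO replicate 3. Akr1b1, the aldose reductase of the polyol pathway, had 6682, 6486 and 6453 against 12935, 13178 and 12344, and its log2 fold change of 0.97 ± 0.05 missed the threshold although the groups lay far apart. Without TNF-α+EMO replicate 3, Akr1b1 reached 1.02 and became a DEG. Akr7a2, an aflatoxin aldehyde reductase, had 760, 650 and 629 against 688, 497 and 459, with overlap (log2 fold change -0.31 ± 0.15, edgeR adjusted p of 0.077).

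The 2 tested genes of the Akr1c cluster on chromosome 17, hydroxysteroid dehydrogenases, were scarce. Both were tested only because they reached 10 counts with TNF-α alone, so their direction was set by the filter. Akr1c14 had 44, 57 and 54 raw counts against 0 in all 3 libraries with EMO, and was thus at least 16.4-fold lower when set against 3 counts per library. Akr1c12 had 32, 36 and 32 against 2, 0 and 3. The TNF-α group thus held 19.1 times as much, with a 95% interval of 7.90 to 60.0 that covers counting error only. Akr1c12 and Akr1c14 are similar in sequence, so the counting could have split reads between them and their neighbours.

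Glutathione S-transferases moved in both directions within the alpha and the mu class. Of 23 genes 20 had a count and 13 were tested, of which 4 rose and 3 fell. That made 53.8% DEGs, against 47.3% of all tested genes. Gsta1, of the alpha class that conjugates lipid peroxidation products, had 636, 645 and 872 normalized counts against 3835, 3742 and 4898. The groups lay over 4-fold apart at their nearest libraries, and the log2 fold change was 2.53 ± 0.16 with an edgeR adjusted p of 1.49e-06. Gsta4, the enzyme for 4-hydroxynonenal, had 51.0, 59.5 and 49.7 against 9.28, 18.4 and 7.13, and fell by 2.19 on the log2 scale (SE 0.36). Gsta6 had 95.1, 98.5 and 112 against 21.7, 25.6 and 23.4, and fell by 2.11 (SE 0.22). Gstm4, of the mu class, had 721, 725 and 682 against 1793, 1866 and 1888, a log2 fold change of 1.38 ± 0.07. Gstm7 had 2032, 1968 and 1888 against 140, 222 and 223, and fell by 3.33 on the log2 scale with an SE of 0.15. Its interval holds Gstm6 and Gstm3l on the same strand, which had at most 1 count in a library. The split of reads between the 3 genes is uncertain. Gstm1 had 529, 489 and 594 against 456, 490 and 399, with overlapping groups and a log2 fold change of -0.26 ± 0.11.

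Gstp1, the pi class enzyme that dominates outside the liver, had 16361, 14632 and 14553 normalized counts against 8374, 8457 and 12327. TNF-α+EMO replicate 3 stood above the others, though below every TNF-α library. The log2 fold change was -0.64 ± 0.16 (edgeR adjusted p of 0.0082), and -0.83 without that replicate. Gsto1, of the omega class that reduces dehydroascorbate, had 1376, 1342 and 1407 against 2548, 2663 and 2726 (log2 fold change 0.94 ± 0.06), without overlap but under the threshold. Gsto2 overlaps Gsto1 on the same strand and had 3.92, 11.7 and 13.6 against 14.4, 33.8 and 19.4. Its call (log2 fold change 1.20 ± 0.49, edgeR adjusted p of 0.042) was lost in 8 of 15 other fits, and reads of Gsto1 may be counted in it. The edgeR adjusted p was 0.18, 0.081 and 0.052 without TNF-α replicate 1, 2 or 3, and 0.18 without TNF-α+EMO replicate 2. Of the theta class, Gstt2 had 78.5, 57.5 and 74.0 against 237, 144 and 177 (log2 fold change 1.41 ± 0.22), while Gstt1 had 172, 182 and 143 against 125, 115 and 131 (-0.42 ± 0.15). Gstz1, which isomerizes maleylacetoacetate, had a log2 fold change of 0.37 ± 0.08, and overlaps Pomt2 on the opposite strand.

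Gstm5 had 62.8, 75.1 and 755 normalized counts with TNF-α alone and 17.5, 70.6 and 364 with EMO. The libraries numbered 3 were high in both groups, and the log2 fold change was -0.98 ± 1.56 (edgeR adjusted p of 0.59). Among 11286 genes with a mean of at least 50 normalized counts, only Gstm5 and Hnrnpab were at least 3-fold above both other libraries in the libraries numbered 3 of both groups. Hnrnpab, a nuclear RNA-binding protein, had 118, 154 and 1399 against 129, 173 and 2676. Both were noticed after their values were seen.

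All 3 membrane-bound transferases fell, Mgst3 having reached 10 counts only with TNF-α alone. Over all tested genes 27.8% fell. Mgst1, a glutathione transferase and peroxidase of the endoplasmic reticulum and outer mitochondrial membrane, had 4074, 4164 and 3880.1 normalized counts against 337, 288 and 337. Mgst2, which can conjugate leukotriene A4, had 1709, 1611 and 1661 against 184, 178 and 184. Both were over 8-fold lower in each TNF-α+EMO library than in any TNF-α library. The log2 fold changes were -3.65 ± 0.08 for Mgst1 and -3.19 ± 0.08 for Mgst2, with edgeR adjusted p of 2.01e-11 and 4.00e-11. Mgst3 had 426, 389 and 417 raw counts against 1, 2 and 1. The TNF-α group held 294 times as much, with a 95% counting interval of 114 to 1080.

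Conjugation with glucuronic acid and sulfate was represented by few genes. None of the 4 Ugt2 genes in the table (Ugt2a3, Ugt2b10, Ugt2b15 and Ugt2b35) had a count. Of 12 sulfotransferases 9 had a count and Sult5a1 alone was tested, with 40, 27 and 22 raw counts against 0, 0 and 2. Sult5a1 passed the filter only through its counts with TNF-α alone, so its direction was set by the filter. The ratio was 42.4 with a 95% counting interval of 11.4 to 356. Sult1a1, the phenol sulfotransferase, had 8, 4 and 11 raw counts against 0, 1 and 2, too few to test.

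Among the genes without a test, the 41 with counts reached at most 35 in any library, and 33 of them never passed 10. That highest count was Cyp4f5 in TNF-α replicate 1, with 35, 11 and 7 against 0, 0 and 1. Cyp4f5 overlaps Cyp4f17 on the same strand, so reads of the pair may be mixed. Of those 41 genes, 19 had no count in any TNF-α+EMO library and 7 had none in any TNF-α library. The 41 genes without a count included 25 Cyp genes, among them the hepatic Cyp2c7, Cyp2c22, Cyp3a18, Cyp4a1 and Cyp4a2. At this depth their absence cannot be told from a few transcripts.

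**Figure D3:**
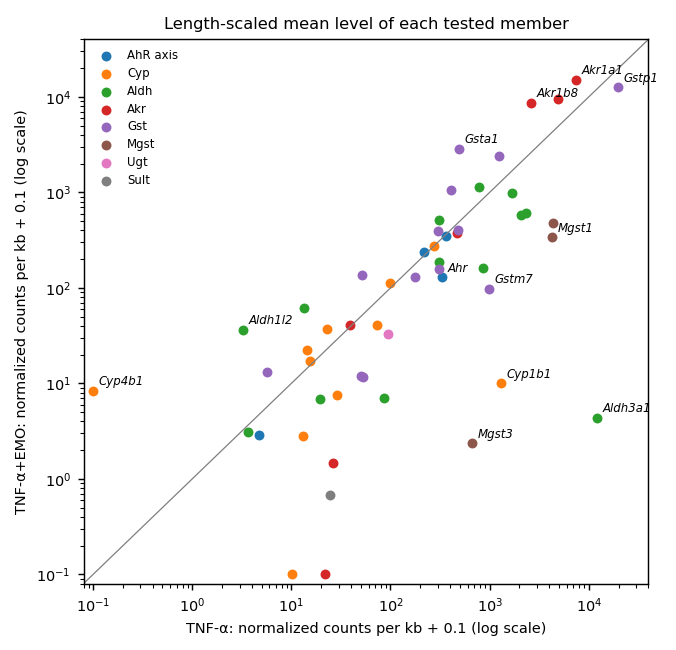
Mean normalized counts per kilobase plus 0.1 in the TNF-α group (horizontal axis, log scale) and the TNF-α+EMO group (vertical axis, log scale) for each of the 53 tested genes, colored by family, with the line of equality. Gstp1, Akr1a1 and Akr1b8 lie at the upper right, and Aldh3a1, Cyp1b1 and Mgst3 lie far below the line.

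Per kilobase of deposited gene length, the order of the enzymes changed with EMO. This scale depends on the lengths in the table, which for Mgst2 is only 384 bases. With TNF-α alone, the highest means were 19743 normalized counts per kilobase for Gstp1, 12163 for Aldh3a1 and 7488 for Akr1a1. With EMO they were 15176 for Akr1a1, 12639 for Gstp1 and 9581 for Akr1b1, followed by 8694 for Akr1b8. In the TNF-α group Akr1b1, Mgst2 and Mgst1 came next, with 4888, 4323 and 4252 normalized counts per kilobase. The 2 Mgst genes had 474 and 338 with EMO.

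Summed over a family on the same per-kilobase scale, the aldehyde dehydrogenases went from 20125 to 21031 normalized counts per kilobase in the TNF-α libraries to 4081 to 4600 with EMO, a 4.79-fold gap between the means. The aldo-keto reductases went from 15465 to 15697 to 31746 to 35592, a 2.17-fold gap in the other direction. Cytochrome P450s went from 1844 to 1899 to 496 to 590, and membrane transferases from 9087 to 9434 to 770 to 837, an 11.4-fold gap. Those 4 families did not overlap between the groups. The soluble glutathione transferases overlapped, with 23280 to 25602 and 18139 to 24509. All 135 genes together had 71077 to 74712 and 56194 to 66752.

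The make-up of each family changed as well. Aldh3a1 was 59.0% ± 0.19 (SD, n = 3) of the length-scaled aldehyde dehydrogenase level with TNF-α alone and 0.097% ± 0.059 with EMO. Aldh9a1 and Aldh7a1, at 3.78% and 8.17% with TNF-α alone, made up 26.4% and 22.9% with EMO. Cyp1b1 went from 69.7% ± 0.18 of the Cyp level to 1.85% ± 0.56, and Cyp4v3, whose own level did not pass the test, from 14.5% to 49.9%. Gstp1 went from 81.2% ± 2.30 of the soluble transferases to 61.7% ± 3.17, while Gsta1 went from 2.04% to 14.1% and Gsto1 from 5.17% to 12.1%. Among the aldo-keto reductases Akr1b8 went from 16.9% to 25.7%. These shares sum to a fixed total in each library, so a share can rise while the gene's own level does not.

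**Figure D4:**
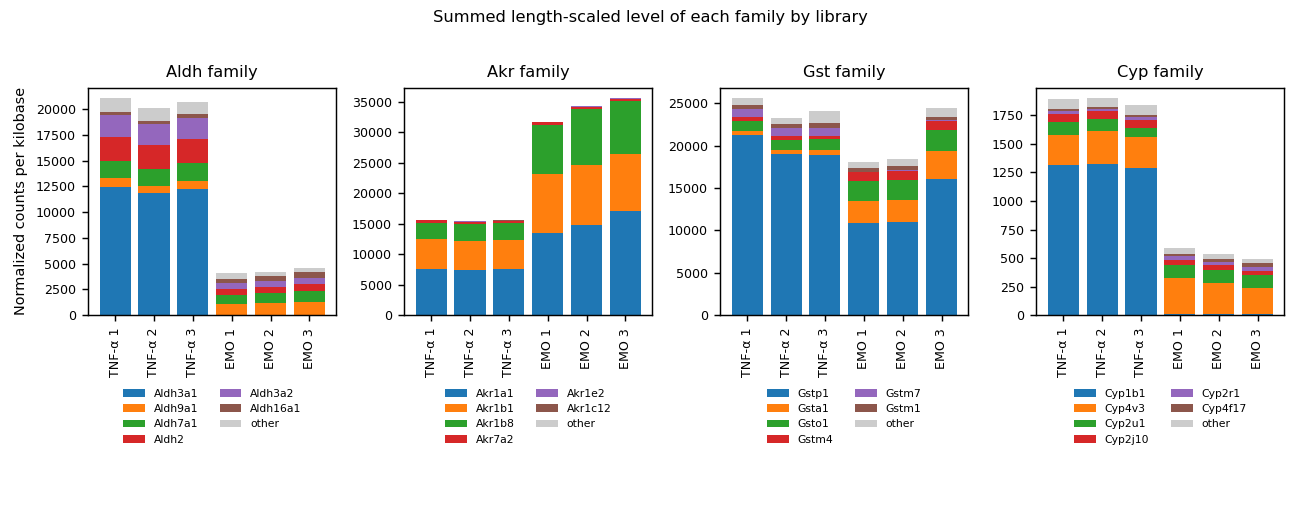
Stacked bars of the summed normalized counts per kilobase (vertical axis, from 0, a separate scale for each family) in each of the 6 libraries for Aldh, Akr, Gst and Cyp genes, with the 6 genes of highest share in color and the rest in grey. The Aldh3a1 and Cyp1b1 blocks are visible only in the 3 TNF-α libraries, and the Akr bars are higher in the 3 TNF-α+EMO libraries.

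Of 9 pairs of tested genes of a family that followed each other within 300 kb on a chromosome, 6 had log2 fold changes of the same sign and 3 of opposite sign. The 6 include Akr1c12 and Akr1c14, whose direction the filter set. They also include the pairs of Gstm7 with Gstm5 and with Gstm1, whose groups overlapped. Such pairs were not counted over all tested genes, so the number is a description only. On chromosome 2 of build Rnor_6.0, Gstm5, Gstm7, Gstm1 and Gstm4 lie in that order between 210685197 and 210839295, with gaps of 21.0 to 32.4 kb between these tested genes and the untested Gstm6l between Gstm5 and Gstm7. Their log2 fold changes were -0.98, -3.33, -0.26 and 1.38. On chromosome 9, Gsta1 (27368272 to 27452902) and Gsta6 (27475273 to 27511176) lie 22.4 kb apart with log2 fold changes of 2.53 and -2.11. On chromosome 10, Aldh3a1 (47490153 to 47499876) and Aldh3a2 (47525493 to 47546345) lie 25.6 kb apart and both fell, by 11.45 and 1.82 on the log2 scale. On chromosome 4, Akr1b1 and Akr1b8 lie 51.0 kb apart at log2 fold changes of 0.97 and 1.72. The other pairs were the overlapping Gsto2 and Gsto1, Akr1c12 and Akr1c14, and Gstt2 and Gstt1, the last with opposite signs. The glutathione transferases of such clusters are near-identical in places, so the split of reads between them is uncertain.

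The other genes of these pathways were read from lists, whose counts stand against 47.3% DEGs, 19.5% raised and 27.8% lowered, among all tested genes. Of 9 proteins that hold or assist AhR, all tested, 1 rose and 1 fell, or 22.2% DEGs. Ptges3, the p23 co-chaperone, had a log2 fold change of 1.12 ± 0.06, and Ncoa2, a coactivator, of -1.65 ± 0.10. Hsp90aa1 had 696, 1494 and 2855 normalized counts in the TNF-α libraries against 985, 910 and 865, so its spread lay within the TNF-α group (edgeR adjusted p of 0.22). Among 10 xenobiotic nuclear receptors 5 were tested, 1 rising (Rxrb) and 3 falling, of which Vdr reached 10 counts only with TNF-α alone. Rxra, a partner shared by several of the others, had 841, 755 and 756 against 161, 174 and 201, a log2 fold change of -2.13 ± 0.10. Nr1i3 (CAR) fell by 1.36 on the log2 scale and Vdr, the vitamin D receptor, by 4.51. Nr1i2 (PXR) and Nr1h4 (FXR) had no count in any library. The call of Rxrb (log2 fold change 1.03 ± 0.16) was lost in 7 of 16 other fits, at 0.97 and 0.91 without TNF-α replicate 2 or 3 and 0.84 without TNF-α+EMO replicate 3.

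Of 31 redox partners and other phase I enzymes 27 were found and 19 tested, 3 rising and 9 falling, with 63.2% DEGs and a median log2 fold change of -0.72. Nqo2 and Fmo2 reached 10 counts only with TNF-α alone, and among the other 17 genes 3 rose, or 17.6%, and 7 fell, or 41.2%. Por, the electron donor of microsomal P450s, had 2603, 2472 and 2437 normalized counts against 1443, 1494 and 1628, a log2 fold change of -0.72 ± 0.07 that stayed under the threshold. Xdh, xanthine dehydrogenase, had 2633, 2657 and 2766 against 50.5, 61.4 and 44.8, and fell by 5.68 on the log2 scale (SE 0.10). Cyb5r3, the cytochrome b5 reductase, fell by 1.32, and Aox1, aldehyde oxidase, by 1.70. Maoa, monoamine oxidase A, had 480, 461 and 488 against 1770, 1816 and 1761 and rose by 1.90 on the log2 scale. Ephx2, soluble epoxide hydrolase, rose from 61.8, 61.4 and 44.8 to 260, 321 and 295, by 2.38.

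Of 12 genes for cofactor supply, all tested, 1 rose and 2 fell, or 25% DEGs. Of the latter, Papss2 reached 10 counts only with TNF-α alone. Ugdh, which makes the UDP-glucuronic acid used by Ugt enzymes, had 6901, 7203 and 7333 normalized counts against 690, 623 and 699. The groups were about 10-fold apart, at a log2 fold change of -3.41 ± 0.07 and an edgeR adjusted p of 1.29e-11. Slc7a11, the cystine importer for glutathione synthesis, had 263, 273 and 223 against 1291, 1195 and 1055 and rose by 2.22 on the log2 scale. The glutathione synthesis genes Gclc, Gclm and Gss had log2 fold changes of 0.47, -0.55 and 0.57. Of 8 other phase II enzymes 6 were tested, with Nnmt (nicotinamide methylation, log2 fold change 2.33 ± 0.10) and Nat2 (1.16 ± 0.16) rising and Bphl (-2.56 ± 0.24) falling. Nat2 overlaps Nat1 on the same strand, so reads of Nat1 (log2 fold change 0.48) may be counted in it.

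Of 19 transporters 17 were found and 9 tested, 1 rising and 4 falling, or 55.6% DEGs. Slc47a1 and Abcc6 reached 10 counts only with TNF-α alone, so the filter set their direction. Among the other 7 transporters 1 rose, or 14.3%, and 2 fell, or 28.6%. The shares over all tested genes not admitted by a single group were 18.9% and 23.5%. Abcc1, which exports glutathione conjugates, had 2249, 2280 and 2168 normalized counts against 227, 253 and 278 and fell by 3.14 on the log2 scale (SE 0.09). Slc47a1, a proton exchanger of organic cations, had 1097, 1138 and 978 against 7.22, 4.09 and 4.07 and fell by 7.67. Abcb4, a phospholipid floppase, had 3961, 3940 and 3944 against 12588, 11668 and 10825 and rose by 1.57. Of 14 retinoid genes, which act around the Aldh1a enzymes, 8 were tested, 1 rising (Stra6) and 4 falling (Rara, Rarg, Dhrs3 and Cyp26b1), or 62.5% DEGs. Stra6, the retinol uptake receptor, reached 10 counts only with EMO and was at 0, 2 and 3 raw counts against 50, 41 and 42. The filter thus set its direction. Of the other 7 retinoid genes 0 rose and 4 fell, or 57.1%, against 23.5% of all tested genes not admitted by a single group. Rara fell by 1.24 on the log2 scale and Rarg by 1.03, or by 0.95 without TNF-α+EMO replicate 1. The 4 phase I genes and 2 transporters not found were not analysed here.

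**Figure D5:**
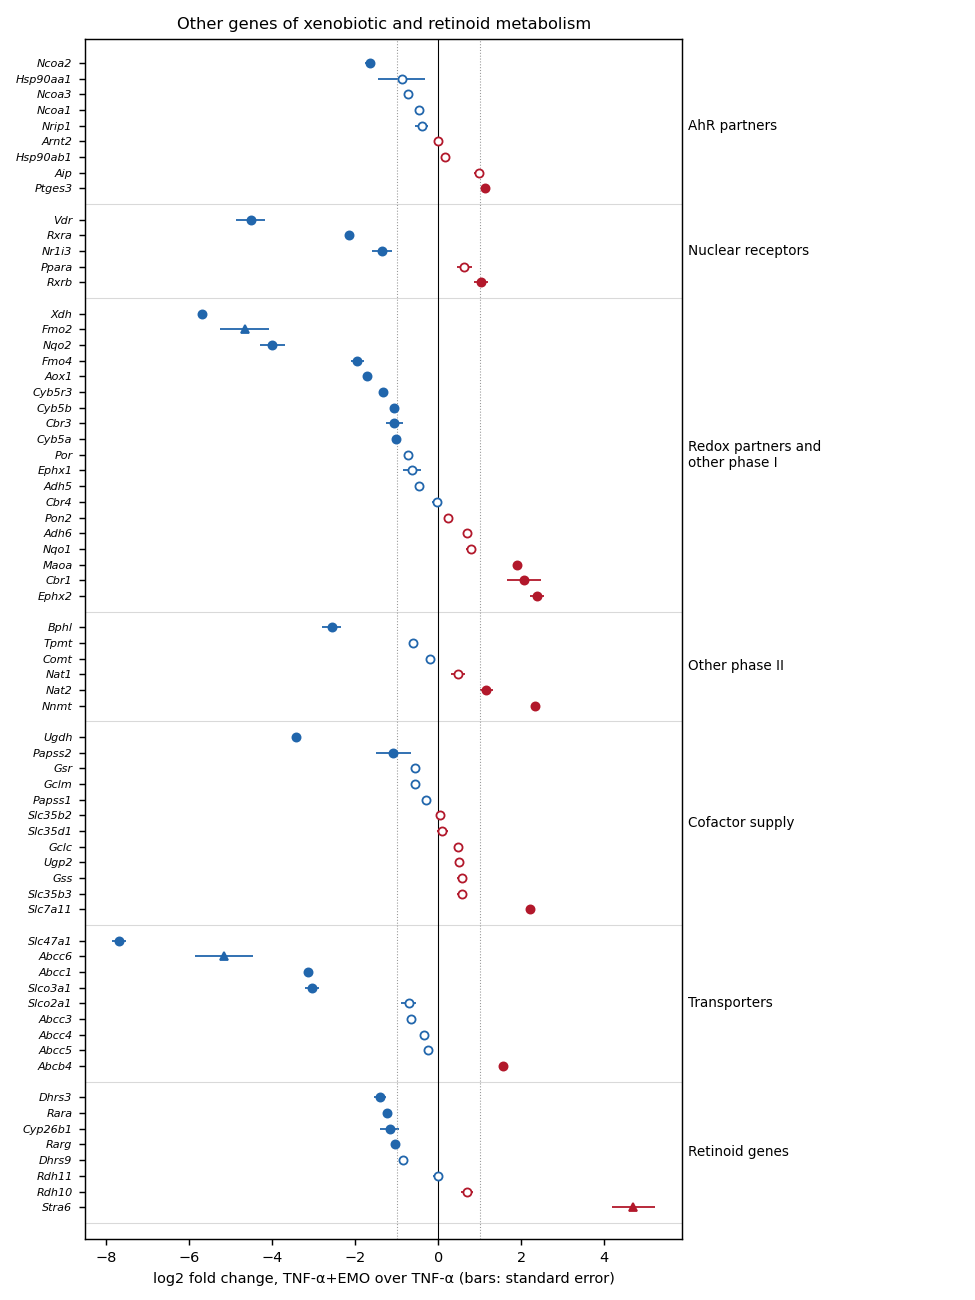
Log2 fold change of TNF-α+EMO over TNF-α (horizontal axis, bars are the standard error) for the tested genes of 7 lists around the enzymes, with symbols as in the plot of the enzymes. Raised and lowered DEGs number 1 and 1 of 9 tested AhR partners and 1 and 3 of 5 nuclear receptors. They are 3 and 9 of 19 redox partners, and 2 and 1 of 6 other phase II enzymes. They are 1 and 2 of 12 cofactor supply genes, 1 and 4 of 9 transporters and 1 and 4 of 8 retinoid genes. Over all 13614 tested genes 2659 rose, or 19.5%, and 3783 fell, or 27.8%. Vdr, Nqo2, Fmo2, Papss2, Slc47a1, Abcc6 and Stra6 reached 10 counts in only 1 group.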

How the data were processed

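RNA-seq was measured in 6 libraries. The provider trimmed and checked the reads and used HISAT2 for alignment. The submitters' processing notes name FastQC, Trimmomatic, HISAT2 and build Rnor_6.0. The counting program and its strand setting are not given in the sources used here. The authors deposited raw counts per gene, which were used for every result. The FPKM values the authors deposited were used only to check the gene lengths. The group means, log2 fold changes and p-values of the authors' comparison were not used.

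A gene was tested if 3 or more libraries held 10 or more of its counts. Library sizes were adjusted by TMM, and edgeR 4.0.16 (R 4.3.3) gave robust quasi-likelihood F tests, with Benjamini-Hochberg adjustment over 13614 genes. The fit was tested on simulated counts. Levels between genes are normalized counts per kilobase of deposited length. Floors of 3 counts per library and 95% intervals, exact on the counts of both groups, cover counting error only, and 16813322 to 17794455 counts per library set them. Genes named are the AhR axis, the largest DEGs and most abundant genes of each family, and listed genes by the same rules, plus scarce genes named to account for a family. Members and lists were chosen with earlier results of these data known. DESeq2 1.42.0, other scaling, filters, thresholds, a replicate block and left-out libraries were alternatives. A listed gene was left out of its list and is not reported here.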

Additional observations from a re-analysis of the deposited data

How the results depend on the processing

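Counts of DEGs among all genes were 6442, and 3064 with a log2 fold change over 2 or 11008 with no fold threshold. Among the enzymes and AhR genes, 8 rose, and 4 when 10 counts were asked of all libraries, 3 with a log2 fold change over 2 and 14 with no fold threshold. The 21 that fell became 13 when 10 counts were asked of all libraries, since fewer genes were then tested. Leaving out 1 library gave 5406 to 6182 DEGs among all genes, 6 to 7 raised members and 15 to 21 lowered members. The 15 arose whenever a TNF-α library was left out, since the 6 members reaching 10 counts only with TNF-α alone then went untested. Leaving out a TNF-α+EMO library gave 21 each time. Same-number correlations between the groups were 0.0193, -0.00683 and 0.0676. With 3 libraries per group they cannot decide whether the numbers pair the samples, which the labels do not say. Pairing libraries by replicate number gave 6421 DEGs, with 8 raised and 21 lowered members under the replicate block. Leaving out both libraries numbered 3, chosen after seeing Gstm5, gave 7 raised and 22 lowered members. Of 71 named genes, 63 kept their call in every other fit that tested them. The exceptions were Akr1a1, Akr1b1, Gsto2, Rxrb, Cyb5b, Cyb5a, Cbr3 and Rarg. Akr1a1 fell under the threshold, at 0.94 to 0.95, without any single TNF-α replicate or without TNF-α+EMO replicate 3. Without TNF-α+EMO replicate 2, Cyb5b was at -0.99, Cyb5a at -0.90 and Cbr3 at -0.997. Without TNF-α+EMO replicate 1, Cbr3 was at -0.86 and Rarg at -0.95. The cause was not tested. Library totals in place of TMM moved the median of all tested genes from -0.01 to -0.125 on the log2 scale. Genes under about 10 counts per library cannot be compared at this depth.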

Other observations

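The replicates of the TNF-α+EMO group differed more than those of the TNF-α group. Chi-square per gene between library pairs was 4.62 to 5.73 in the TNF-α group and 6.27, 15.1 and 23.5 in the TNF-α+EMO group, the highest values involving replicate 3. Genes with at least 10 counts numbered 13342 to 13365 with TNF-α alone and 12566 to 12662 with EMO. Among the libraries numbered 1, 2 genes (Echs1 and Tmco3) were at least 3-fold above both other libraries in both groups, as Gstm5 and Hnrnpab were in the libraries numbered 3, and the libraries numbered 2 held 0 such genes. At least 3-fold below both other libraries in both groups were 2 genes in the libraries numbered 1 (LOC103693999 and Nfs1), 2 in those numbered 2 (AABR07066510.1 and Calcoco1) and 0 in those numbered 3.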
